A study of Sus scrofa with 6 samples.

Results

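The S. scrofa antisense lncRNAs were examined together with the genes on the opposite strand, in fetal ovary. The members were the lncRNAs whose class in the readable rows of the study's lncRNA catalogue was antisense, after leaving out those in the readable rows of its table of tissue-specific lncRNAs. The catalogue rows held 443 antisense lncRNAs, 46 of them were left out, and 397 remained among the 10813 lncRNAs of the series. The readable rows of the tissue-specific table end early in the numbering, and 379 of the 397 lncRNAs have later numbers, so most could not have been left out by that step. The class chose the members, and the list that was left out rests on expression in the tissue samples of the study. No value of the 6 samples described here entered this rule, although it was chosen with earlier results of these data known. The lncRNAs were paired with 329 distinct genes, of which 317 were listed with values, giving 384 pairs. By their catalogue class, 384 of the 397 lncRNAs lay opposite protein-coding genes, and the others opposite pseudogenes or noncoding transcripts.

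An antisense lncRNA is a long transcript without coding potential that overlaps the exons of a gene and is read from the other DNA strand. Such transcripts are known in many mammalian loci, where some act on the chromatin, transcription or RNA stability of the overlapping gene and many have no known role. In the catalogue, intronic lncRNAs lie within introns of a gene, and cis-regulatory lncRNAs lie close to one end of a gene.

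The samples were 6 ovary samples of 49 days post coitus, 3 from Meishan and 3 from Large White fetuses. Meishan is a Chinese pig breed known for large litters and Large White is a European breed. No treatment or allele is given for either group, and the labels do not say whether each sample was 1 fetus or a pool. The p-values therefore measure the spread between these samples, which may be technical in part. Expression was given in RPKM, the reads on a feature divided by its length in kilobases and by the mapped reads. The depth recovered from the steps of the values was 35185781 to 39033204 mapped reads per sample, at which 3 reads on a feature of 1 kb equal an RPKM of 0.0769 to 0.0853. Meishan replicate 3 stood apart, being the highest or the lowest sample for 79 of the 157 antisense lncRNAs tested between breeds, against 39 to 57 for each of the other samples. In that library INSL3, a hormone of steroidogenic gonadal cells, had an RPKM of 235 against 1.04 to 15.6 in the others. CYP17A1, another steroidogenic marker, was also highest there, at 59.2 against 1.28 to 25.7. CYP11A1, the first enzyme of steroid synthesis, was instead lowest there, at 506 against 1299 to 1882. The sum of 3 endothelial markers was lowest there, at 37.3 against 58.5 to 74.9. That of 3 Sertoli cell markers, each too low for testing, was highest there, at 2.36 against 0.310 to 0.840.

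Markers of the gonadal soma were present, with the transcription factor WT1 at 9.24 to 12.3 RPKM. GATA4, another such factor, was at 29.0 to 30.4 in Meishan against 18.1 to 23.9 in Large White. Neither is particular to the ovary, and FOXL2, WNT4 and RSPO1 of the same list were not matched to a gene. The summed level of 7 germ cell markers was 7.5 to 12 in Meishan and 19.4 to 21.6 in Large White, with KIT, a receptor of germ cells, at 1.68, 1.99 and 7.77 against 16.6, 14.8 and 16.9. Without KIT the sum was 4.20 to 7.61 in Meishan and 3.08 to 5.05 in Large White, with overlap. DDX4, which defines germ cells, was at 0 in Meishan replicate 1 and at 0.0375 to 1.58 elsewhere. The sums of 4 stroma markers (552 to 686 against 835 to 899) and of 3 steroidogenic markers (800.1 to 1420 against 1673 to 1917) were also lower in every Meishan sample. These sums were mostly COL3A1 and CYP11A1, and without them they were 61.5 to 173 against 89.4 to 119 for stroma and 2.32 to 295 against 18.2 to 34.7 for steroidogenic cells, with overlap in both and the highest sum in Meishan replicate 3. The sum of 5 markers of pre-granulosa and supporting cells was instead higher in every Meishan sample (46.2 to 81.9 against 37.4 to 44.8). Of these 5 only GATA4 did not overlap between breeds. The highest sum, in Meishan replicate 3, went with FST at 37.2 there against 6.77 to 9.56 elsewhere. The sum of 5 blood and immune cell markers was 55.9 to 154 in Meishan and 91.7 to 96.1 in Large White, most of it HBB. PTPRC (1.79 to 2.30 against 2.59 to 2.78) and CD68 (4.14 to 7.59 against 9.33 to 10.4) were lower in every Meishan sample. CD68 is also a sense gene here. CD14 (1.99 to 4.93 against 4.91 to 7.54), HBB and ALAS2 overlapped between breeds. Sums of 7 mesonephros and kidney markers stayed at or below 1.48, with UMOD at 0 in all samples. Those of 3 skeletal muscle markers stayed at or below 2.03, with MYL1 at 0 in all samples. Of 63 symbols in 9 marker lists 40 were matched and 25 tested. None of the 25 was called by limma, against 0.739% of all tested protein-coding genes, or by limma-voom. An unadjusted p under 0.05 by limma was reached by 5 of the 25, against 16% of all tested protein-coding genes. In whole ovaries fewer cells of a type and less RNA per cell cannot be told apart, and the part of these markers in the breed values below was not tested.

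The 397 antisense lncRNAs were 204 to 9586 nt long with a median of 853 nt, and 234 of them had 2 exons. They lay at 327 loci, and 54 genes had more than 1 antisense lncRNA, with at most 5 at a gene. The catalogue placed 156 in CpG islands and gave 217 as conserved at the DNA level in both human and mouse. Of the lncRNAs in CpG islands 43.6% (Wilson 95% interval 36.1 to 51.4) reached 0.5 RPKM in 3 or more samples, against 36.9% (31.1 to 43.2) of the others. For the lncRNAs conserved in human and mouse this share was 39.6% (33.4 to 46.3), and for the 100 not conserved in either it was 38.0% (29.1 to 47.8). The intervals overlapped in both comparisons. They take the lncRNAs as independent, although 55 of the 327 loci held more than 1, and they do not cover the spread between samples. The depth floor covers counting error only.

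In fetal ovary 170 antisense lncRNAs were above 0 in all 6 samples, 133 in some of them, and 94 were listed at 0 throughout. The mean RPKM was at least 10 for 29 lncRNAs, 1 to 10 for 106, and above 0 but under 1 for 168. The number above 0 per sample was 235, 237 and 252 in the Meishan samples and 242, 220 and 219 in those of Large White, with a mean of 234 ± 12.8 (SD, n = 6). The breeds overlapped, and the two-sided exact permutation test gave p = 0.3 (no lower than 0.1 can be reached with 3 samples per breed). Their summed RPKM was 1140, 990.1 and 939 in Meishan against 1052, 1018 and 955 in Large White (two-sided exact permutation test, p = 0.9). A value of 0 can come from the counting, because htseq-count in its usual modes leaves reads unassigned where features overlap. The study does not name the mode, and the part of the counting in these values of 0 was not tested. All 24 lncRNAs whose bases all lay in other lncRNAs of the same strand were listed at 0 (Wilson 86.2 to 100%), as were 36 of 123 that shared some bases (29.3%) and 34 of 250 that shared none (13.6%, 9.90 to 18.4%).

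Antisense lncRNAs were detected more often than the other gene-associated classes of the same catalogue rows. In each sample 36.0% to 40.3% of them had an RPKM of at least 0.5, against 20.4% to 32.4% of 494 intronic and 17.7% to 19.4% of 891 cis-regulatory lncRNAs. The antisense share exceeded that of both other classes together by 17.5 percentage points (SD 2.44, n = 6), being higher in 6 of 6 samples (two-sided exact sign-flip permutation test, p = 0.03125, the smallest that 6 samples allow). The same p was obtained against the intronic class alone, with 12.7 points, and against the cis-regulatory class alone, with 20.1 points. The same lncRNAs were scored in all 6 libraries, so this p does not measure the spread between lncRNAs or loci.

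**Figure D1:**
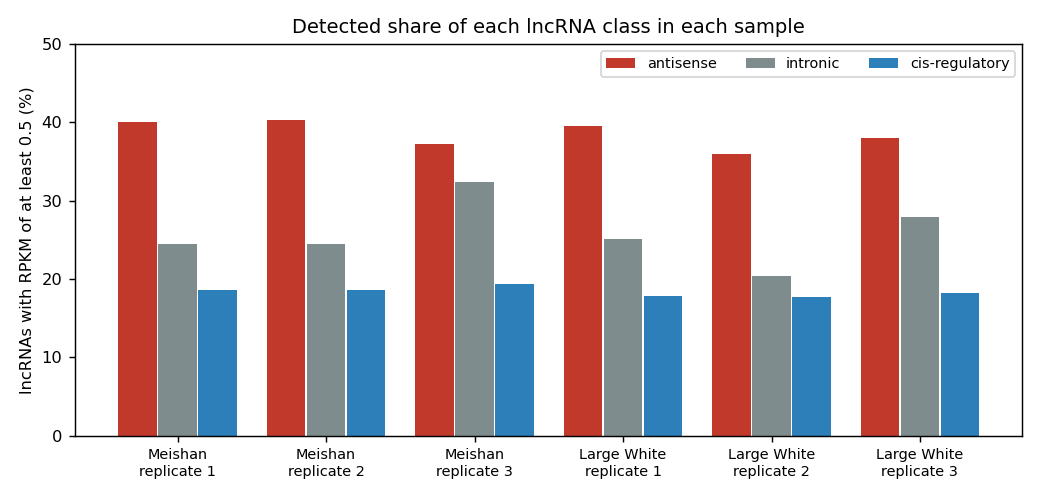
Bars give the percentage of lncRNAs with an RPKM of at least 0.5 in each of the 6 fetal ovary samples for the antisense, intronic and cis-regulatory classes. The antisense bar was the tallest in every sample, at 36.0% to 40.3%.

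The most abundant antisense lncRNA was TCONS_00727935 (chr9:24044323-24090964, plus strand, Sscrofa10.2), opposite CTSC, which encodes the lysosomal protease cathepsin C. Its RPKM was 146, 90.4 and 29.4 in Meishan against 89.7, 78.9 and 63.0 in Large White, and that of CTSC was 368, 198 and 69.6 against 257, 245 and 184. Both were highest in Meishan replicate 1 and lowest in Meishan replicate 3, and the breeds overlapped. TCONS_00822253, opposite the stress-responsive gene NDRG2, was second, with 36.9, 39.2 and 220 in Meishan against 54.7, 22.7 and 53.2 in Large White. NDRG2 itself had 16.5, 15.4 and 84.0 against 24.6, 14 and 19.8, so that both members of the pair were highest in Meishan replicate 3. TCONS_00766513, opposite PGP1A, had 55.1, 52.4 and 20.5 against 76.0, 89.6 and 62.5, and its gene 96.9, 119 and 44.5 against 143, 161 and 119. In that pair all Meishan samples lay below all Large White samples for the lncRNA, and the adjusted p of limma was 0.289.

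The next in order had means of 22.6 to 31.7 RPKM and lay opposite HSBP1 (a binding partner of heat shock factors), LAMB1 (the laminin beta 1 chain of basement membranes), WDR83OS, ERGIC1 (a protein of the compartment between endoplasmic reticulum and Golgi) and RAB7A (a GTPase of late endosomes). Their order was not resolved, since the ranges over samples overlapped. The lncRNA opposite WDR83OS, TCONS_00439670, had 35.5, 18.8 and 17.1 in Meishan against 35.7, 35.5 and 25.4 in Large White, and the gene had 36.9, 24.7 and 20.1 against 36.5, 36.4 and 31.0. Within each sample the levels of these 2 transcripts were close, with a log2 ratio of lncRNA to gene, each as RPKM + 1, of -0.37 to -0.03. For RAB7A the lncRNA TCONS_00176684 varied little, from 20.5 to 27.9, and the gene lay between 35.6 and 47.7.

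**Figure D2:**
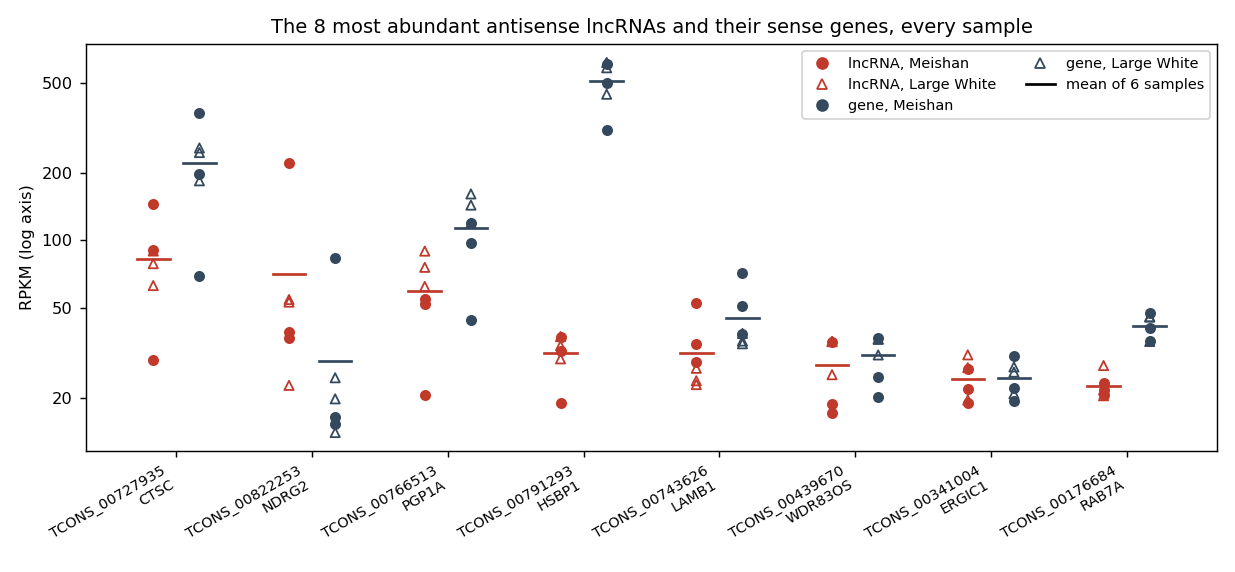
RPKM on a log axis of the 8 antisense lncRNAs with the highest mean (red) and of their sense genes (dark blue) in 3 Meishan (filled circles) and 3 Large White (open triangles) samples, with lines at the mean of 6. CTSC and its lncRNA both reached their lowest value in Meishan replicate 3 (69.6 and 29.4), whereas NDRG2 and its lncRNA reached their highest there (84.0 and 220).

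The sense genes were a broad set, and 194 of the 317 listed (61.2%) reached 0.5 RPKM in 3 or more samples, the limit for testing, as did 157 of the lncRNAs (39.5%). Whether the lncRNA passed went with whether the gene passed. Where the gene passed, 62.1% of 240 lncRNAs did, and where it did not, 4.86% of 144 did. The corresponding shares were 38.1% and 5.88% for intronic, and 21.6% and 8.60% for cis-regulatory lncRNAs. The 7 antisense lncRNAs that passed without their gene lay opposite KRT26, SLC47A2, IL7R, NLRC3, IL9R, KAL1 and RGN.

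In the 149 antisense pairs (143 genes) in which both transcripts passed, the lncRNA was close to its gene in level. The median log2 ratio of lncRNA to gene was -0.13 (quartiles -0.96 and 0.29), and 110 pairs (73.8%) lay within 2-fold on this scale of RPKM + 1. The medians were -2.01 in 127 intronic and -1.46 in 131 cis-regulatory pairs, with 19.7% and 35.9% within 2-fold. Per sample, 71.6% ± 1.78 (SD, n = 6) of the antisense pairs were within 2-fold. This exceeded the intronic pairs by 51.0 and the cis-regulatory pairs by 37.9 percentage points, in 6 of 6 samples each (two-sided exact sign-flip permutation tests, p = 0.03125 for both). The same pairs were scored in all 6 libraries, so this p does not measure the spread between pairs. With no pseudocount, a choice made after seeing the data, 59.7%, 15.7% and 25.2% of the pairs lay within 2-fold. The sense genes themselves had median levels of 4.03 RPKM in the antisense, 7.89 in the intronic and 5.54 in the cis-regulatory pairs. The medians of the lncRNAs were 2.88, 1.12 and 1.04. These classes were compared only where both transcripts passed the limit, so lower lncRNAs are absent from each.

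**Figure D3:**
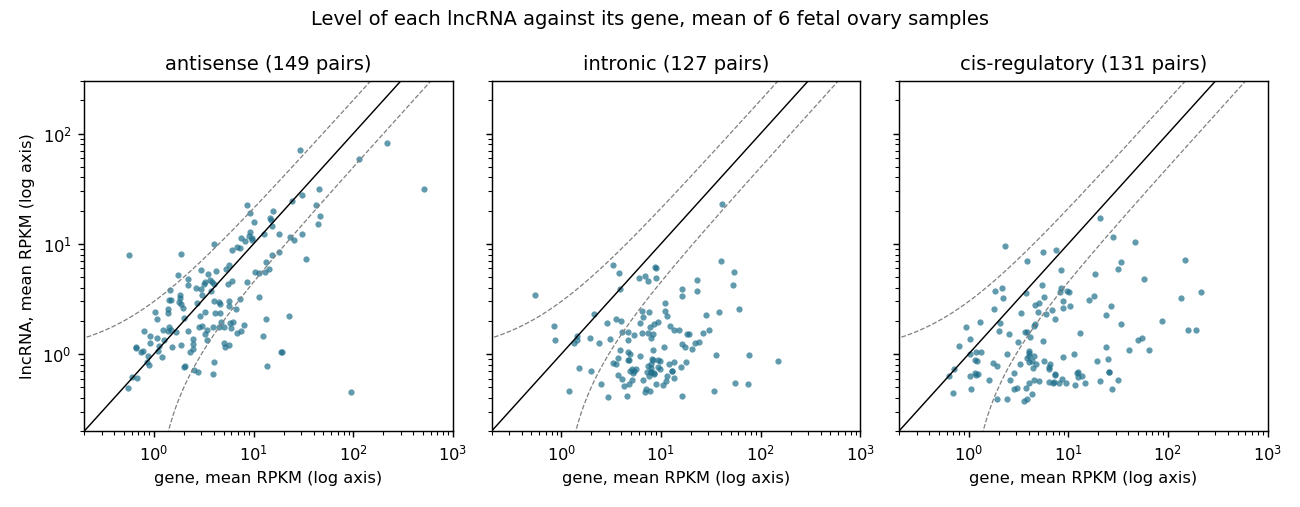
Each point is a pair of an lncRNA (vertical axis, mean RPKM of 6 samples) and its gene (horizontal axis), both on log axes, for antisense, intronic and cis-regulatory lncRNAs. The solid line marks equal levels and the dashed curves 2-fold differences of RPKM + 1, and 73.8%, 19.7% and 35.9% of the pairs lay within 2-fold on that scale.

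Of all 384 pairs the gene was above the lncRNA in every sample in 170, the lncRNA above the gene in every sample in 33, and the order was mixed in 181. The highest ratio was that of TCONS_00481255, opposite FBXO24, a subunit of ubiquitin ligases. The lncRNA had 4.09, 9.0 and 8.57 RPKM in Meishan against 7.04, 7.93 and 10.8 in Large White, and the gene had 0.739, 0.494 and 0.941 against 0.123, 0.260 and 0.826. The lowest lncRNA value exceeded the highest gene value (log2 ratio 2.49). Opposite GATA2, a transcription factor of blood and endothelial cells, TCONS_00176710 had 6.41, 10.2 and 4.15 against 7.81, 9.02 and 11.5, and the gene 1.49, 2.44 and 1.04 against 1.83, 2.49 and 2.02. The other pairs with the highest ratios were those of MFSD2B (1.17), NDRG2 (1.16), WDR24 (1.14) and AGBL5 (1.13). The lncRNA was at least 2 times its gene in every sample in 3 pairs.

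At the other end were abundant genes whose antisense lncRNA was far lower than the gene. CHCHD2, a mitochondrial protein gene, had 79.6, 78.1 and 43.9 RPKM in Meishan against 136, 126 and 103 in Large White, while TCONS_00482712 had 0.659, 0.224 and 0.166 against 0.527, 0.149 and 1.02. The lncRNA thus had 0.485% of the mean level of its gene, with a log2 ratio of -5.97 on the scale of RPKM + 1. The gene HSBP1 was the most abundant of the sense genes, at 307 to 615 RPKM, and its lncRNA TCONS_00791293 stayed at 19.0 to 37.4, with a log2 ratio of -4.06 to -3.86 in every sample. CD83, a surface marker of activated immune cells, had 21.6 to 77.4, and its lncRNA TCONS_00657912 0.0507 to 1.22. Of the 2 lncRNAs opposite CD90, a surface glycoprotein gene at 31.8 to 75.6 RPKM, 1 was listed at 0 throughout and the other was above 0 in a single sample, at 0.317. Both share most or all of their bases (100% and 84.2%) with other lncRNAs of the same strand. The next lowest ratios were those opposite WRNIP1 (-3.33), ENSSSCG00000016982 (-3.31), AGFG2 (-3.08) and TXNDC15 (-2.83).

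Over the 40 pairs whose gene had a mean of at least 10 RPKM, the lncRNA had under 1% of the level of its gene in 4, 1 to 10% in 6, 10 to 50% in 14 and at least 50% in 16. The libraries were strand-specific and counted by strand, but the files hold no measure of how completely the strands were separated. The labels name the SMART protocol, for which the methods of the study give a strand setting, and whether that setting was run on each of these samples was not tested. Reads of a sense gene counted on the opposite strand would raise an antisense value, and their part in these levels was not tested. Among the 31 of these lncRNAs that shared no base with another lncRNA, the smallest share of the level of the gene was the 0.485% of CHCHD2.

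The lncRNAs also moved with their genes from sample to sample. The log2 ratio varied less over the 6 samples (median SD 0.287) than the lncRNA itself (0.433) or the gene (0.331), and its SD was below that of the lncRNA in 109 of 149 pairs (73.2%). In intronic pairs this was so in 43.3% and in cis-regulatory pairs in 31.3%. For PSME2, a subunit of the proteasome activator, the log2 ratio of TCONS_00669014 to its gene stayed between -1.31 and -1.20. The lncRNA had 9.88, 9.15 and 8.12 RPKM in Meishan against 16.1, 17.5 and 13.4 in Large White, and the gene 24.8, 24.2 and 20.7 against 41.2, 42.9 and 32.1. Both were lower in every Meishan sample, with adjusted p of 0.112 and 0.139 by limma. Across the 149 pairs, the deviations of the lncRNAs from their mean correlated with those of the genes with Pearson r of 0.589 to 0.825 by sample, highest in Meishan replicate 3, against 0.0353 to 0.477 in intronic and 0.124 to 0.403 in cis-regulatory pairs. Mean levels correlated across pairs with Spearman rho of 0.627, 0.121 and 0.296 in the 3 classes. These are descriptions over pairs that share the same 6 libraries. The lncRNAs of the intronic and cis-regulatory pairs had lower median levels. The part of these levels, and of sense reads counted on the opposite strand, was not tested.

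Among the sense genes, 7 groups were followed, holding 169 listed genes of which 112 were tested. None of these genes or of their 96 tested lncRNAs was called between breeds by limma, which called 0.739% of all tested protein-coding genes and 0.925% of all tested lncRNAs, or by limma-voom. At an unadjusted p under 0.05 there were 17 genes, 7 higher and 10 lower in Meishan, and 17 lncRNAs. These were 15.2% of the tested genes and 17.7% of the tested lncRNAs, near the 16% of all tested protein-coding genes and the 14.7% of all tested lncRNAs. The group of transcription factors and chromatin genes had 15 of 18 genes and 14 of 19 lncRNAs tested, and the gene was above the lncRNA in every sample in 8 of 14 pairs (median log2 ratio -0.48). MAZ, a zinc finger factor, had 13.3 to 34.1 RPKM and its lncRNA TCONS_00460142 had 6.44 to 15.5, both highest in Meishan replicate 3. For NR2F1, a nuclear receptor, the levels were 6.27 to 12.1 and, for TCONS_00445668, 8.59 to 12.7. SMARCD3, a subunit of the SWI/SNF chromatin remodeller, and its lncRNA TCONS_00392029 had means of 12.7 and 12.3. The forkhead factor FOXN3 had 12.4 and its lncRNA 1.47.

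Signalling genes had 16 of 28 genes and 15 of 36 lncRNAs tested, with a median log2 ratio of 0.03. PTGER3 encodes a receptor of prostaglandin E2, and its lncRNA TCONS_00630789 had 7.96, 16.1 and 2.38 RPKM in Meishan against 17.9, 28.9 and 29.2 in Large White. The gene had 15.2, 15.9 and 3.65 against 15.9, 19.3 and 18.7. The Meishan lncRNA values all lay below those of Large White, at a log2 fold change of -1.68 ± 0.53 (SE, adjusted p = 0.209 by limma). Without Meishan replicate 3 it was -1.06 (adjusted p = 0.123 by limma). The NCK2 adaptor gene and its lncRNA had means of 15.4 and 7.85, MIB2, a ubiquitin ligase of the Notch pathway, 14.9 and 16.6, and NRP2, a co-receptor of semaphorins, 10.4 and 5.53. GNRHR, the receptor of gonadotropin-releasing hormone, was at 0 to 1.49 RPKM and its 2 lncRNAs at 0 to 1.81, too low for testing.

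Immune and interferon genes had 23 of 31 genes and 20 of 37 lncRNAs tested (median log2 ratio 0.08). At an unadjusted p under 0.05 by limma were 6 genes (26.1%, 2 higher and 4 lower in Meishan) and 7 lncRNAs (35%). These shares were the highest of the 7 groups, the others having 7.14% to 18.2% of genes and 0% to 26.7% of lncRNAs. Over all tested features they were 16% of protein-coding genes and 14.7% of lncRNAs. Metabolic enzymes had 22 of 31 genes and 19 of 38 lncRNAs tested (median -0.31). ALDH2, the mitochondrial aldehyde dehydrogenase, had a mean of 44.6 and its lncRNA 15.2, and GGT5, a gamma-glutamyltransferase, 17.9 and 12.3. For ECHDC2 the means were 34.0 and 7.25. Channels and transporters had 14 of 24 genes and 9 of 27 lncRNAs tested (median 0.07), and the amino acid transporter SLC38A1 showed the same high sample in both transcripts, with 14.8 for the gene and 17.1 for the lncRNA in Meishan replicate 3 against 2.14 to 5.05 and 2.03 to 6.35 elsewhere. SLC38A10 had a mean of 46.8 and its lncRNA 17.9, SLC22A23 6.52 and 0.509, and SLC51B 4.58 and 2.35.

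DNA repair, replication and germ cell genes had 9 of 13 genes and 6 of 18 lncRNAs tested (median 0.04). The lncRNA opposite WRNIP1, a partner of the Werner helicase, had 0.360 to 1.79 RPKM against 16.1 to 21.3 for the gene, and that opposite NABP1, a single-stranded DNA binding protein, 7.75 to 15.4 against 16.5 to 28.2. ERCC6, a transcription-coupled repair gene, and its lncRNA had means of 4.03 and 4.35, and the lncRNA opposite DCUN1D5 was listed at 0 with its gene at 1.47 to 3.43. Adhesion, matrix and cytoskeleton genes had 13 of 24 genes and 13 of 27 lncRNAs tested (median -0.17). LAMB1 had 71.5, 51.4 and 38.5 in Meishan against 34.8, 38.7 and 35.8 in Large White, and TCONS_00743626 had 52.6, 34.6 and 28.8 against 23.8, 27.1 and 22.9. The lncRNA was higher in every Meishan sample and the gene overlapped by a narrow margin (adjusted p of 0.289 and 0.357 by limma). The metalloproteinase gene ADAMTS9 and its lncRNA had means of 8.92 and 11.7, AFAP1L2 13.0 and 5.56, and LSR 4.05 and 0.844.

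The breeds were then compared by limma on log2(RPKM + 1) over all 14902 features that passed the limit. A call needed an adjusted p (Benjamini-Hochberg) under 0.05 and a fold of at least 2. None of the 157 antisense lncRNAs was called, against 0.925% of all tested lncRNAs, and limma-voom on the recovered reads called none either. An unadjusted p under 0.05 was reached by 30 lncRNAs (19.1%) in limma, 15 in each direction, and by 27 in limma-voom, against 14.7% of all tested lncRNAs in limma. The breeds did not overlap in 20 lncRNAs higher in Meishan (12.7%, against 10.4% of all tested lncRNAs) and in 15 lower (9.55%, against 7.6%). The median log2 fold change was -0.02, beside 0.09 for all tested lncRNAs, with a range from -1.68 to 1.10, and 7 lncRNAs had a change of 2-fold or more.

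Of the 194 tested sense genes 1 was called (0.515%, against 0.739% of all tested protein-coding genes). It was PRSS12 (ENSSSCG00000009114), which encodes the secreted serine protease neurotrypsin. Its RPKM was 3.40, 2.74 and 2.93 in Meishan against 8.45, 8.67 and 7.11 in Large White, without overlap. PRSS12 was lower in Meishan with a log2 fold change of -1.17 ± 0.16 (SE, adjusted p = 0.0270 by limma). Its lncRNA TCONS_00717554 (chr8:112906306-112912946, minus strand, Sscrofa10.2, 6208 nt in 3 exons) had 3.07, 2.78 and 2.64 against 5.91, 5.94 and 5.48, also without overlap. The log2 fold change of the lncRNA was -0.82 ± 0.15 (SE, adjusted p = 0.0639 by limma), the smallest adjusted p among the antisense lncRNAs. The change of the lncRNA minus that of the gene was 0.35 (adjusted p = 0.533 in the limma test of the pair ratio). The call of PRSS12 was lost without any 1 of the samples except Meishan replicate 3, with adjusted p of 0.0712 to 0.226, and without a filter on low values. Among the sense genes 33 (17%) had an unadjusted p under 0.05, against 16% of all tested protein-coding genes. The breeds did not overlap in 21 higher (10.8%, against 9.9%) and 26 lower (13.4%, against 14.3%).

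Without Meishan replicate 3, which stood apart in these same lncRNAs, limma called 3 antisense lncRNAs, each higher in Meishan. Over all lncRNAs tested in that fit it called 31 of 1292 (2.4%). The antisense lncRNAs tested were 157 with all samples and were not counted for that fit, so their share is not given and no excess is claimed. TCONS_00750782, opposite the sialidase gene NEU3, had 4.87, 5.72 and 2.54 RPKM in Meishan against 1.71, 1.64 and 1.44 in Large White, and its log2 fold change was 1.0 with all samples and 1.28 without that library (adjusted p = 0.138 and 0.0197 by limma). TCONS_00388063, 1 of the lncRNAs opposite NPSR1, a neuropeptide receptor, had 2.39, 2.27 and 1.35 against 0.582, 0.452 and 0.454 (0.99 and 1.16, adjusted p = 0.0927 and 0.0321). TCONS_00660004, opposite ENSSSCG00000001131, had 4.60, 5.38 and 3.61 against 1.42, 2.43 and 1.83 (0.94 and 1.06, adjusted p = 0.102 and 0.0485). In these lncRNAs every Meishan sample was above every Large White sample, Meishan replicate 3 being the lowest of its breed. Their genes were not called in that fit. NEU3 had an adjusted p of 0.0485 there by limma with a log2 fold change of 0.92, under the 2-fold limit. PRSS12 was again the called sense gene in that fit, against 209 of all 13085 protein-coding genes tested (1.6%). NEU3 had 3.08, 3.0 and 1.11 against 1.06, 1.22 and 1.13, NPSR1 had 2.74, 0.845 and 1.15 against 0.455, 0.0792 and 0.238, and ENSSSCG00000001131 had 2.63, 2.57 and 1.04 against 1.59, 1.77 and 1.41.

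**Figure D4:**
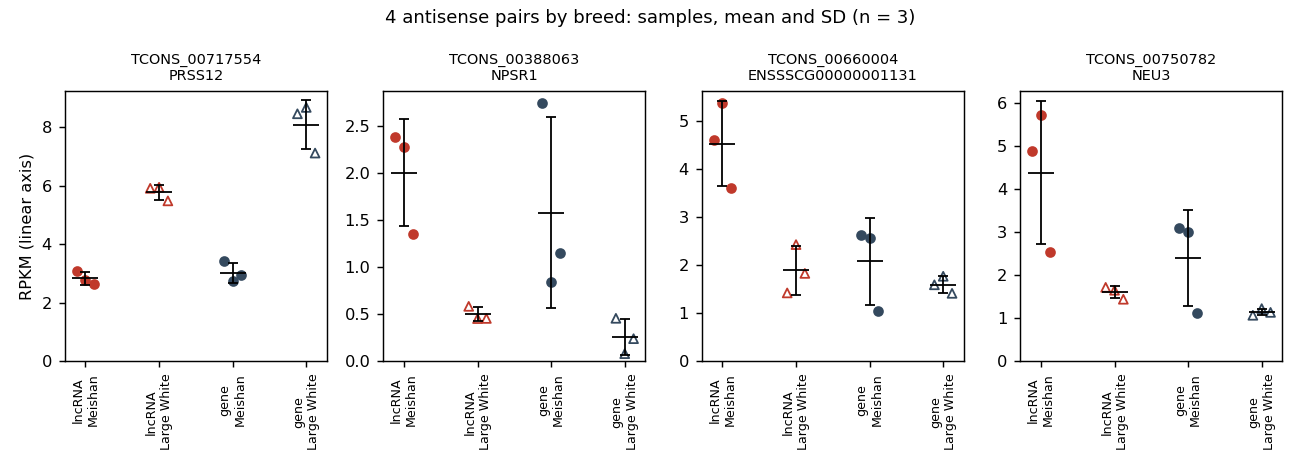
RPKM on linear axes of 4 antisense lncRNAs (red) and their sense genes (dark blue) in Meishan (filled circles) and Large White (open triangles), with mean and SD (n = 3). The lncRNA opposite PRSS12 was 2.64 to 3.07 in Meishan and 5.48 to 5.94 in Large White, and the other 3 lncRNAs were higher in every Meishan sample.

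Breed changes of lncRNAs and genes went together in the 149 pairs. The log2 fold changes had a Pearson r of 0.734 across the antisense pairs, against 0.186 across the intronic and 0.254 across the cis-regulatory pairs, and the same sign in 115 (77.2%), 53.5% and 58.0%. Both changes in a pair come from the same 6 libraries, so sample differences enter both. The lncRNAs had lower median levels in the intronic and cis-regulatory pairs (1.12 and 1.04 against 2.88 RPKM). The part of these levels, and of sense reads counted on the opposite strand, was not tested. Some pairs with large changes, chosen after their values were seen, show the pattern. TCONS_00272860, opposite the proteoglycan gene SRGN, had 14, 15.1 and 7.94 RPKM in Meishan against 34.8, 24.6 and 18.3 in Large White, and the gene 6.76, 5.69 and 4.34 against 16.5, 11.0 and 10.9. Neither overlapped between breeds (adjusted p = 0.186 and 0.0921 by limma). TCONS_00250168, opposite MSS51, had 8.27, 5.55 and 5.58 against 4.07, 2.23 and 1.67, and its gene 9.97, 6.33 and 7.24 against 5.25, 4.20 and 3.21 (adjusted p = 0.139 and 0.180 by limma).

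The limma test of the ratio asked whether the change of the lncRNA differed from that of its gene. It called none of the 149 antisense pairs, against 0.21% of the 477 pairs of lncRNAs and genes tested together, and 8 (5.37%) had an unadjusted p under 0.05, against 11.5%. The difference of the log2 fold changes lay within 0.5 in 136 pairs and was 1 or more in 3. The smallest adjusted p, 0.153, was that of TCONS_00658483, opposite GMPR, the enzyme that reduces GMP. This lncRNA had 1.92, 1.99 and 1.68 RPKM in Meishan against 1.34, 1.80 and 1.71 in Large White, while GMPR had 0.572, 0.200 and 0.847 against 1.73, 1.91 and 3.20. The gene was lower in every Meishan sample and the lncRNA overlapped, with a difference of 1.22 ± 0.30 (SE). The other 2 such pairs were TCONS_00728412 with KIAA1731 and TCONS_00641508 with ZNF451, at -1.38 and -1.19. A missed threshold does not show that a lncRNA and its gene changed alike, and no pair difference was resolved with 3 samples per breed.

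**Figure D5:**
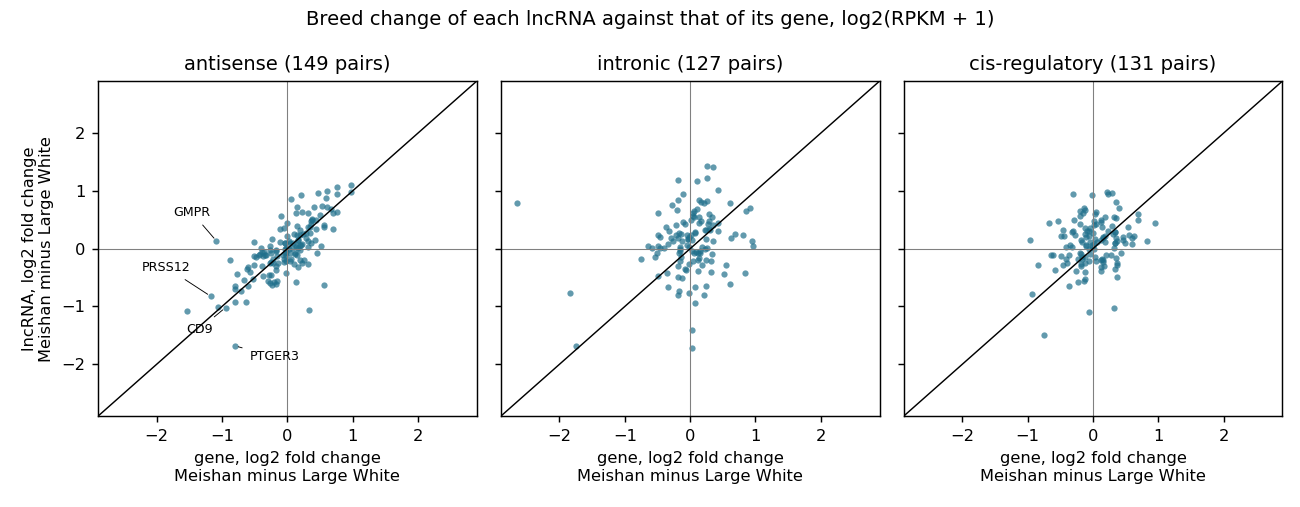
Log2 fold change, Meishan minus Large White on log2(RPKM + 1), of each lncRNA (vertical) against that of its gene (horizontal) in antisense, intronic and cis-regulatory pairs, with the line of equal change. Antisense pairs lay along the line (Pearson r 0.734) more than intronic (0.186) and cis-regulatory pairs (0.254), and GMPR lay away from it.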

How the data were processed

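RNA of 6 ovary samples was isolated with TRIzol, depleted of ribosomal RNA and made into strand-specific paired-end libraries. The authors mapped the reads with TopHat (the submitters' processing notes name TopHat2 2.1.0) to Sscrofa10.2, counted by strand with htseq-count at a mapping quality of at least 1, and deposited 1 RPKM value per feature and sample. Reads were recovered from the steps of the values. For lncRNAs with a length in the readable catalogue rows that length was used, and all their values above 0 gave reads whole within 0.001. For genes and other lncRNAs the smallest length that gave nearly whole reads was taken, so their reads may be too low. The limma-voom fit rests on these reads. By them, 36.6% to 46.3% of the mapped reads fell on the features.

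The members, gene lists and tests were chosen with earlier results of these data known. Breeds were compared with limma 3.58.1 (R 4.3.3; lmFit and eBayes with a trend) on log2(RPKM + 1), which understates changes of low features, over the 14902 features that reached 0.5 RPKM in 3 or more samples, with Benjamini-Hochberg adjustment over this whole set. The pair ratio used the same fit on the difference of both logs over 477 pairs. Both fits were tested on simulated data. Each fit was repeated with 0.1 as the pseudocount, with 0.1 RPKM or nothing as the filter, with quantile and upper quartile scaling, without the trend, by adjusted p alone, with a replicate block, by limma-voom on the recovered reads and with each sample left out.

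Named were the called lncRNAs and genes with their partners, the 8 lncRNAs and the 8 genes of the highest mean, the 6 highest and 6 lowest ratios, pairs called by the ratio, and up to 4 genes of the highest mean in each group. Others were chosen after their values were seen. Symbols and coordinates came from the catalogue, and marker symbols from a table of gene names. Genes of 13 pairs were not used, for lack of values. No sequence of Sscrofa10.2 was used, so the length of each overlap was not computed.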

Additional observations from a re-analysis of the deposited data

How the results depend on the processing

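The smallest change that 3 samples per breed can show was not computed, and 168 antisense lncRNAs had a mean above 0 but under 1 RPKM. The number of antisense lncRNAs called stayed at 0 under every setting run except without Meishan replicate 3 (0 to 3 over the fits without 1 sample). The number of sense genes called stayed at 1 (PRSS12) except without a filter (0), with the replicate block (0) and without 1 sample (0 to 1). Without Meishan replicate 1 the called gene was CD9 (log2 fold change -1.67, adjusted p = 0.0481 by limma) in place of PRSS12. The cause was not tested. The pair ratio called 0 pairs under every setting run (limma-voom was not among them), with 6 to 14 at an unadjusted p under 0.05. Same-numbered samples of the 2 breeds deviated with r of -0.04, 0.12 and 0.15, not all over 0.1, and 3 of the 6 samples correlated best with their own number, so the numbers were not taken as pairs. With the replicate block 0 antisense lncRNAs were called (29 at an unadjusted p under 0.05) and 0 pair ratios (9). The mean number of antisense lncRNAs above the limit was 234 over 0, 210.3 from 0.1 RPKM and 153 from 0.5 RPKM, and with the limit of 0 it lay at 230.6 to 237.2 without 1 sample. Pairs with the lncRNA above its gene fell from 33 to 3 when 2-fold was required, and numbered 35 to 39 without 1 sample. The share of antisense lncRNAs minus that of the other classes was 17.1 to 18.3 points without 1 sample, with an exact sign-flip p = 0.0625, the smallest that 5 samples allow. Among 82 named features in 1142 fits, 7 fits of PRSS12 lost the limit of the adjusted p, 1 of its lncRNA passed it, at under 2-fold (without Meishan replicate 3) and 0 called values reversed. In 101 fits of 39 named features that were not called the sign changed, all with a log2 fold change of at most 0.74 in size over all samples.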
